A study of Mus musculus with 12 samples.

Results

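Purinergic receptors are the cell surface proteins through which cells sense adenosine and extracellular nucleotides, and the genes of 10 of them were followed here in adult neural stem/progenitor cells (aNSPCs) exposed to NAD+. The genes were taken by name from the 55401 genes that both deposited tables list: the adenosine receptors Adora1, Adora2a and Adora2b, the ion channels P2rx4 and P2rx7, and the nucleotide receptors P2ry1, P2ry2, P2ry6, P2ry12 and P2ry14. All 10 names were found once in each table. The aNSPCs were isolated from the forebrain of C57BL/6 mice aged 8 to 10 weeks, and RNA was sequenced in 4 groups of 3 samples, 12 in all: proliferating cells without NAD+ (Ctrl) or with NAD+, and cells under differentiation conditions without NAD+ (Ctrl) or with NAD+. Proliferating cells were grown with 20 ng/mL EGF and 20 ng/mL FGF-2, and NAD+ was applied at 1 mM. The differentiation protocol of the study combined 1 µM retinoic acid and 5 µM forskolin with NAD+, and whether the Ctrl samples sequenced here received both is not stated in the sources used here. The treatment field of the labels reads untreated for all 12 samples, so the groups follow the titles, 6 of which name NAD+. No genotype other than the strain is given. The study describes the 3 samples of a group as biological repeats. Neither it nor the labels say whether these came from separate cultures or mice, so that p-values measure only the spread between these samples.

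Adenosine receptors are coupled to G proteins: the receptor encoded by Adora1 lowers cyclic AMP, and those encoded by Adora2a and Adora2b raise it. P2X receptors are cation channels opened by ATP, whereas P2Y receptors respond to ATP, ADP, UTP, UDP or UDP-sugars through Gq and calcium release or through Gi. In the brain, ectoenzymes at the cell surface break down ATP and NAD+ stepwise toward adenosine, and P2RY12, P2RX4, P2RX7 and P2RY6 are best known from microglia, while P2RY1, P2RX7 and adenosine receptors have also been studied in neural progenitors and glia.

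The values are FPKM, sequenced fragments of a gene divided by the gene's length and by the fragments mapped in the sample, rounded by the authors to 0.01, so the reads behind a value and the depth of each sample are unknown and no counting error can be given. A gene was called expressed at a mean FPKM of at least 1. For tests, 0.1 was added, log2 was taken, and limma was fitted to the genes whose mean FPKM over the compared samples reached 0.1. A gene was called at a Benjamini-Hochberg adjusted p-value under 0.05 over all genes tested, and log2 fold changes are on the log2(FPKM + 0.1) scale, which understates changes of genes with low values. Bulk RNA was measured, so fewer cells of a type and less RNA per cell cannot be told apart.

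The region before the transcription start is shown for 3 members. These are Adora2b, the member called lower with NAD+, and P2rx4 and P2ry2, 2 of the 4 called higher under differentiation conditions. Each sequence holds the 250 bases upstream of a start from RefSeq on GRCm38.p6 (the mm10 assembly), 5′ to 3′ on the strand of the gene. Capitals mark matches on either strand to the cyclic AMP response element TGACGTCA or its half-site TGACG (bound by the CREB family, which acts downstream of the forskolin target adenylyl cyclase), to the nuclear receptor half-site AGGTCA (used by retinoic acid receptors) or to the GC box GGGCGG.
Adora2b, chr11:62248734-62248983, plus strand: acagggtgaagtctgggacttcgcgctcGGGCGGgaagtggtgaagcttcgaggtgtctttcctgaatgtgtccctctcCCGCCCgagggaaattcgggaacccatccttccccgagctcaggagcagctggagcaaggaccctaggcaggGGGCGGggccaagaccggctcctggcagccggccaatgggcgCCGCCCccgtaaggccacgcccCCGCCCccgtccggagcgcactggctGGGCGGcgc
P2rx4, chr5:122707294-122707543, plus strand: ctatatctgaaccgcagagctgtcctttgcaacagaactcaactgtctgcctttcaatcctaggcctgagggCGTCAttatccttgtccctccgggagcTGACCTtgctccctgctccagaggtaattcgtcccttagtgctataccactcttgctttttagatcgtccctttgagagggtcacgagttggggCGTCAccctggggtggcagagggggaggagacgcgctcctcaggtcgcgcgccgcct
P2ry2, chr7:101011999-101012248, minus strand: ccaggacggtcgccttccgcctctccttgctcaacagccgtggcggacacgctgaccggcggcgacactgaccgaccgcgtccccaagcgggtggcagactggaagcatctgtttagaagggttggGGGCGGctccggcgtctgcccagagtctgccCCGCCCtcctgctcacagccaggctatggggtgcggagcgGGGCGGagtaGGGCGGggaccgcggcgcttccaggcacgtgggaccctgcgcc
The Adora2b window held 6 GC boxes and none of the other motifs. The P2rx4 window held TGACG 2 times, at -178 and -57 from the start, and AGGTCA 1 time, at -151, all on the reverse strand. In the P2ry2 window 4 GC boxes were found. RefSeq lists another P2ry2 start a little further upstream, whose window held AGGTCA at -209. Adora1, also called higher under differentiation conditions, is not shown. Its 2 windows held no TGACGTCA, TGACG or AGGTCA, and 1 of them held 3 GC boxes. Windows were at hand for 8 members, 14 in all, and none for P2ry6 or for Adora2a, the remaining member called higher. TGACGTCA was in 0 of the 14 windows, TGACG in 1 (P2rx4), AGGTCA in 5 and GGGCGG in 6. Of all 32851 promoter windows of this length, 1.55% held TGACGTCA, 17.8% TGACG (every TGACGTCA holds it too), 14.02% AGGTCA and 32.7% GGGCGG. A match is a string of letters and not a bound site, and no binding was measured here.

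The same 5 receptor genes were expressed in both states. Adora1, Adora2b, P2rx4, P2rx7 and P2ry1 had an FPKM of at least 1 in each of the 12 samples, and the other 5 members were below 1 in each sample. Among all 55401 genes, 22.8% of genes reached a mean FPKM of 1 in the 6 proliferating samples and 22.9% in the 6 samples under differentiation conditions. In proliferating Ctrl cells Adora1 was highest (12.9 ± 2.46, SD, n = 3), followed by Adora2b (8.75 ± 2.45), P2rx7 (7.85 ± 1.08), P2ry1 (4.54 ± 0.888) and P2rx4 (1.56 ± 0.296). Adora1 and Adora2b overlapped in their samples there, as did Adora2b and P2rx7, while the steps from P2rx7 to P2ry1 and from P2ry1 to P2rx4 did not overlap. In Ctrl cells under differentiation conditions Adora1 stood alone at the top (18.97 ± 1.5), P2rx7 (7.80 ± 0.782) and Adora2b (7.63 ± 0.613) overlapped, and so did P2ry1 (4.01 ± 0.370) and P2rx4 (3.31 ± 0.719). Adora1 was above 93.3% of all genes in proliferating Ctrl cells and above 96.4% in Ctrl cells under differentiation conditions. With NAD+ Adora2b stood below Adora1 and P2rx7 in proliferating cells (5.07 ± 1.16) and also below P2ry1 under differentiation conditions (4.59 ± 0.569), in each case overlapping P2ry1.

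**Figure D1:**
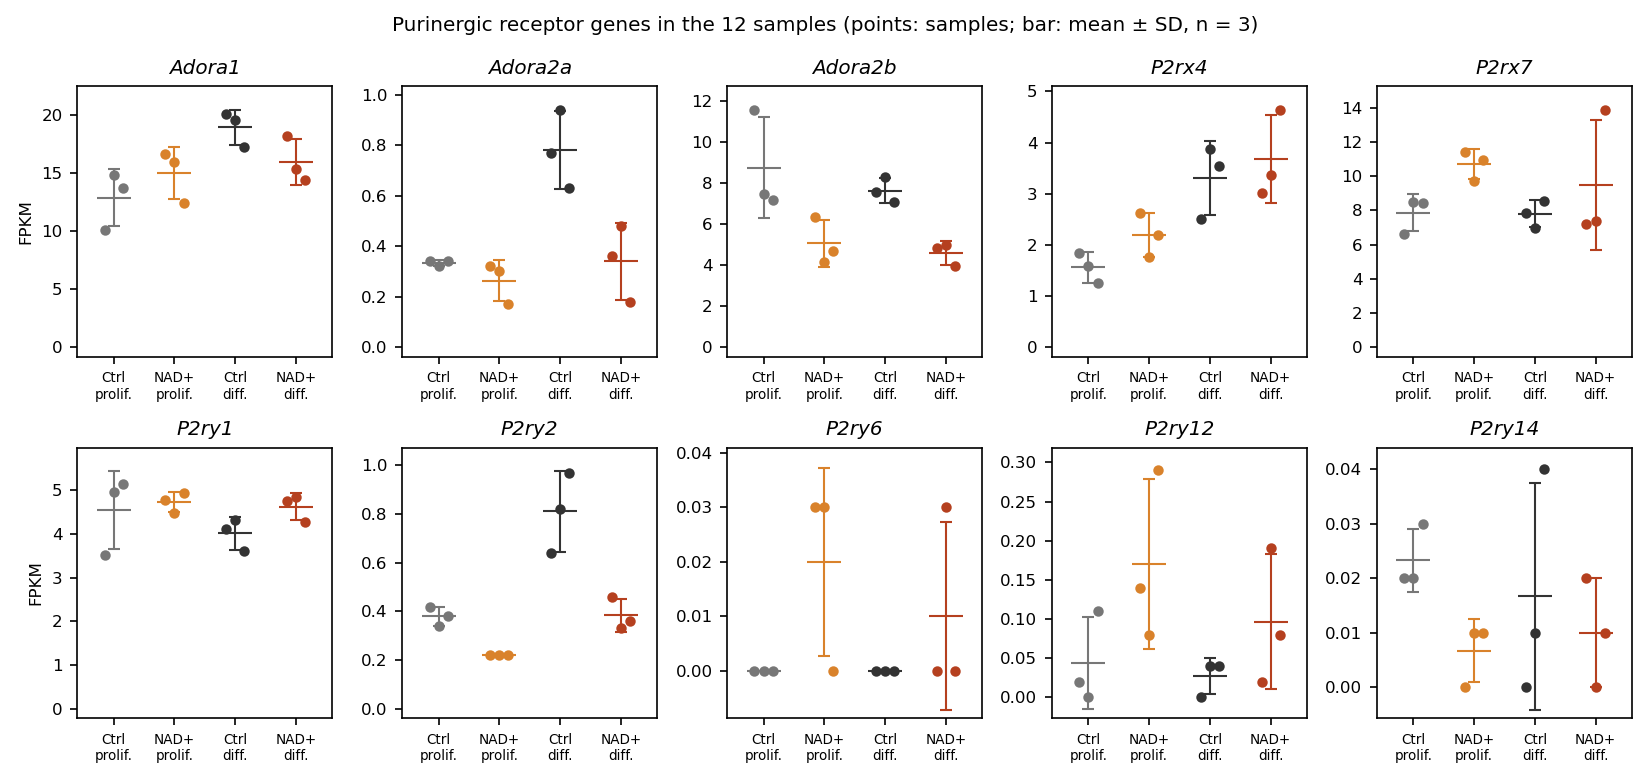
FPKM of the 10 receptor genes (one panel each, linear axes from about 0) in the 4 groups of 3 samples: Ctrl and NAD+, proliferating (prolif.) and under differentiation conditions (diff.); points are samples, bars the mean and SD. Adora2b lies between 3.94 and 6.37 in the 6 NAD+ samples and between 7.06 and 11.57 in the 6 Ctrl samples, and the scales of P2ry6, P2ry12 and P2ry14 stay below 0.3 FPKM for every sample.

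Of 7 neural stem cell markers, 6 had a mean FPKM of at least 1 in both proliferating groups and 5 in both groups under differentiation conditions, and all 7 astrocyte markers did in each group. P2ry6, P2ry12 and P2ry14 were close to 0. P2ry6 was listed at 0 in all 6 Ctrl samples and reached 0.03 in 2 of 3 proliferating NAD+ samples and in 1 of 3 NAD+ samples under differentiation conditions. P2ry14, a receptor for UDP-sugars, ranged from 0 to 0.04 over the 12 samples. P2ry12, an ADP receptor coupled to Gi, had FPKM values of 0.02, 0 and 0.11 in proliferating Ctrl samples and 0.14, 0.08 and 0.29 with NAD+, which overlapped. Only in the proliferating comparison did P2ry12 pass the filter on low values (log2 fold change 0.91, SE 0.45, adjusted p-value 0.384 by limma). Of 16 microglia markers, 15 had a mean under 0.15 in each group, and the highest value of these 15 in any sample was 0.34 FPKM. Their summed FPKM was 0.03 to 0.95 in proliferating Ctrl, 0.01 to 0.09 in proliferating NAD+, 0.17 to 0.69 in differentiation Ctrl and 0.04 to 0.43 in differentiation NAD+ samples. The sixteenth, Sall1, brought the sum to between 7.18 and 12.87, and it is also a gene of neural progenitors.

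Under proliferating conditions no receptor gene passed the test of NAD+ against Ctrl. By limma 0 of the 8 members tested had an adjusted p-value under 0.05, beside 27 of 18597 genes (0.145%), and 3 had an unadjusted p-value under 0.05, beside 15.4% of all genes. Those 3 were Adora2b and P2ry2, lower with NAD+ in every sample, and P2rx7, higher in every sample. Every NAD+ sample was thus below every Ctrl sample in 2 of 8 tested members, beside 8.59% of all genes tested, and above in 1 of 8, beside 15.5%.

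Adora2b, a Gs-coupled adenosine receptor of low affinity, had the most negative log2 fold change of the members in proliferating cells. Its FPKM was 11.57, 7.48 and 7.19 in Ctrl and 6.37, 4.16 and 4.67 with NAD+. The groups did not overlap, and the first Ctrl sample was well above the other two. The log2 fold change was -0.76 (SE 0.23, adjusted p-value 0.216 by limma), and the exact two-sided permutation test of the means gave p = 0.1, the smallest that 3 against 3 samples allow. Proliferating Ctrl sample 1 stood apart from its group over all genes, with a correlation of 0.948 and 0.949 to the other 2 Ctrl samples, which correlated at 0.976 with each other. Without that sample the log2 fold change of Adora2b was -0.55 (adjusted p-value 0.23), and the values of the other Ctrl samples were above those of all 3 NAD+ samples. Proliferating NAD+ sample 1 was also less like its group (0.963 and 0.964, against 0.977 between the other 2), and without it the log2 fold change was -0.94 (adjusted p-value 0.224).

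P2ry2, the receptor for ATP and UTP, was low in proliferating cells, at 0.42, 0.34 and 0.38 FPKM in Ctrl and at 0.22 in each of the 3 NAD+ samples. The groups did not overlap (log2 fold change -0.58, SE 0.23, adjusted p-value 0.297 by limma). P2rx7, the ATP-gated channel that needs high ATP to open, had values of 6.60, 8.51 and 8.44 in Ctrl and of 11.40, 9.72 and 10.94 with NAD+. All 3 NAD+ samples were above all 3 Ctrl samples (log2 fold change 0.45, SE 0.13, adjusted p-value 0.203 by limma), and the exact permutation p was again 0.1. Without proliferating Ctrl sample 1 the log2 fold change of P2rx7 was 0.33 (adjusted p-value 0.17).

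The other expressed members overlapped between Ctrl and NAD+ in proliferating cells. Adora1, the Gi-coupled adenosine receptor, was at 10.14, 14.85 and 13.70 in Ctrl and at 16.62, 15.95 and 12.43 with NAD+ (log2 fold change 0.22, SE 0.18, adjusted p-value 0.569). P2rx4, another ATP-gated channel, was at 1.84, 1.59 and 1.25 in Ctrl and at 2.63, 1.76 and 2.20 with NAD+, where only the lowest NAD+ sample fell within the Ctrl range (log2 fold change 0.47, SE 0.21, adjusted p-value 0.346). P2ry1, the ADP receptor coupled to Gq, was at 3.52, 4.96 and 5.14 in Ctrl and at 4.77, 4.48 and 4.94 with NAD+ (log2 fold change 0.08, SE 0.16, adjusted p-value 0.85). The 95% interval of the P2ry1 difference ran from -0.31 to 0.46 on the log2 scale, and its sign turned to -0.09 without proliferating Ctrl sample 1 and to -0.03 after quantile normalization. Adora2a, a Gs-coupled adenosine receptor, stayed under 0.35 in all 6 samples (log2 fold change -0.28, SE 0.27, adjusted p-value 0.639). These adjusted p-values are from the same limma fit.

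Under differentiation conditions Adora2b was the 1 member of 7 tested that passed the test, and it was lower with NAD+. Its FPKM was 7.56, 8.28 and 7.06 in Ctrl and 4.83, 5.00 and 3.94 with NAD+. No NAD+ sample reached the lowest Ctrl sample, and the mean fell from 7.63 ± 0.613 to 4.59 ± 0.569 (SD, n = 3), a ratio of 0.601. The log2 fold change was -0.73 (SE 0.11, 95% interval -0.998 to -0.454), with an adjusted p-value of 0.0191 by limma, and the exact permutation p was 0.1, the smallest possible. In this comparison 1357 of 19611 genes were called (6.92%), 445 higher and 912 lower, beside which 1 of 7 members is a single gene. After median-ratio scaling 613 genes were called higher and 532 lower. Without any one of the 3 Ctrl samples the call was lost, with adjusted p-values of 0.0722, 0.067 and 0.0531 and log2 fold changes between -0.78 and -0.67, while without any one of the NAD+ samples it was kept, at 0.0378 to 0.0483.

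At the unadjusted threshold 3 of the 7 members passed in the differentiation comparison, beside 24.2% of all genes, and the same 3 had every NAD+ sample below every Ctrl sample, beside 21.1% of all genes. Besides Adora2b these were Adora2a and P2ry2, neither of which passed the adjusted test. Adora2a was at 0.77, 0.94 and 0.63 FPKM in Ctrl and at 0.36, 0.48 and 0.18 with NAD+. The highest NAD+ sample was under the lowest Ctrl sample, and the NAD+ samples differed among themselves by more than the groups' gap (log2 fold change -1.05, SE 0.31, adjusted p-value 0.105 by limma). P2ry2 was at 0.64, 0.82 and 0.97 in Ctrl and at 0.46, 0.33 and 0.36 with NAD+. Its groups were apart too (log2 fold change -0.91, SE 0.22, adjusted p-value 0.06 by limma), and the adjusted p-value lay between 0.0591 and 0.129 over the alternatives that keep all samples. No member had every NAD+ sample above every Ctrl sample (0 of 7), where 9.68% of all genes did.

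The remaining expressed members overlapped between the groups under differentiation conditions. Adora1 was at 20.10, 19.55 and 17.27 in Ctrl and at 18.24, 15.36 and 14.44 with NAD+ (log2 fold change -0.25, SE 0.10, adjusted p-value 0.211 by limma). P2ry1 was at 4.11, 4.32 and 3.6 in Ctrl and at 4.74, 4.84 and 4.26 with NAD+ (log2 fold change 0.20, SE 0.10, adjusted p-value 0.281). In P2rx7, 2 of the NAD+ samples (7.20 and 7.35) were within the Ctrl values of 7.86, 6.99 and 8.55, and the third was at 13.87. The log2 fold change of P2rx7 was 0.21 (SE 0.26, adjusted p-value 0.662), and without that NAD+ sample it was -0.09. The same sample had the highest P2rx4 value, 4.64, beside 3.01 and 3.37 in the other NAD+ samples and 2.5, 3.88 and 3.54 in Ctrl (log2 fold change 0.15, SE 0.22, adjusted p-value 0.728, and -0.03 without it). P2rx7 and P2rx4 lie next to each other on chromosome 5, on the plus strand and 16.1 kb apart.

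**Figure D2:**
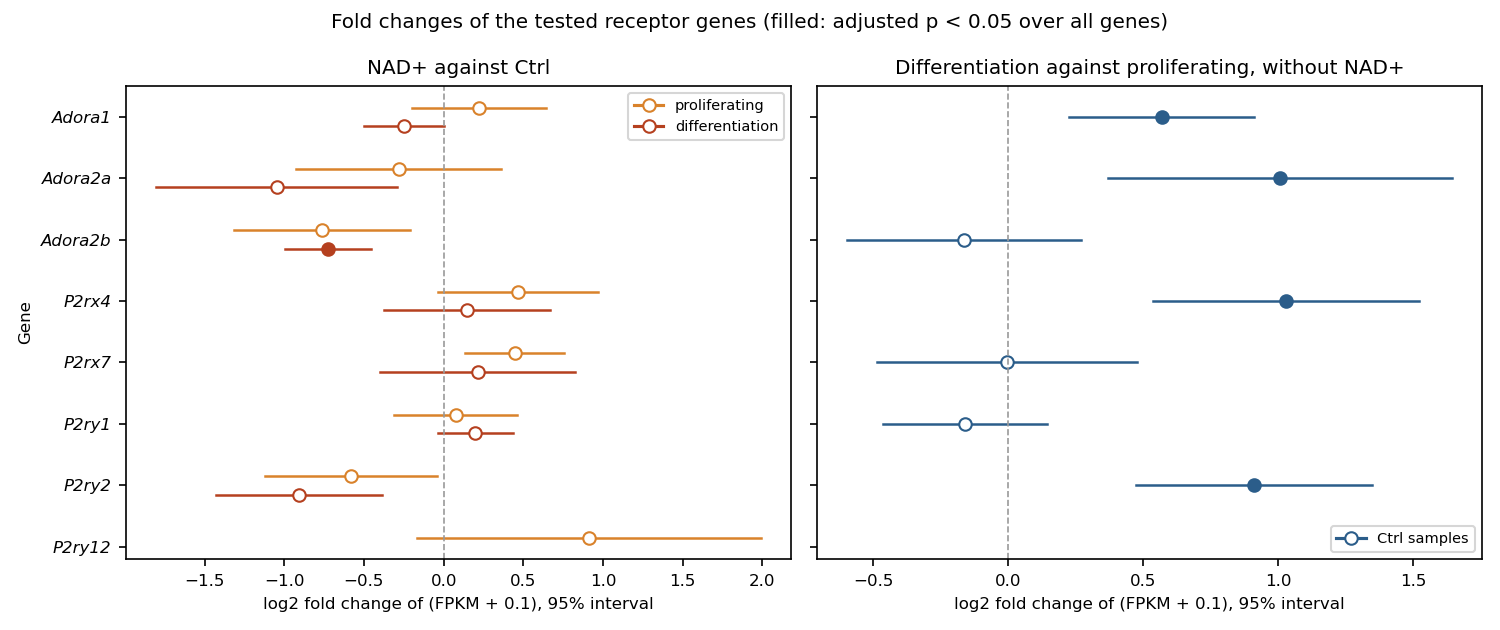
Left: log2 fold change of (FPKM + 0.1), NAD+ against Ctrl, for the receptor genes tested in proliferating cells (orange, 8 genes) and under differentiation conditions (red, 7 genes). Right: the same scale for differentiation against proliferating Ctrl samples (7 genes); lines are 95% intervals and filled points have an adjusted p-value under 0.05, which on the left is Adora2b at -0.73 alone and on the right Adora1, Adora2a, P2rx4 and P2ry2.

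Cell type markers moved with NAD+ beside Adora2b. Under differentiation conditions 2 of 7 tested oligodendrocyte lineage markers were called, both lower, and the summed FPKM of the list of 8 was 415 to 434 with NAD+ against 558 to 574 in Ctrl. Of 7 astrocyte markers, 3 were called higher and 2 lower, with sums of 1907 to 1938 against 1457 to 1627. The higher astrocyte sum was mainly that of Gfap, whose mean rose from 595 to 977 FPKM. Slc1a3 (330 to 424), S100b (94.8 to 107) and Slc1a2 (53.0 to 63.5) also had higher means with NAD+. Aldoc (333 to 261), Aldh1l1 (93.5 to 61.3) and Aqp4 (34.8 to 27.8) had lower ones. Of 7 neuron markers 1 was called lower (sums of 36.7 to 37.7 against 39.9 to 44.4), and of 7 neural stem cell markers 1 was called higher and 2 lower (sums of 393 to 403 against 299 to 343). The higher stem cell sum was mainly that of Vim, whose mean rose from 144 to 241 FPKM. Nes also had a higher mean (9.92 to 11.6), and the remaining stem cell markers had lower ones. In proliferating cells the oligodendrocyte lineage sum was 1045 to 1075 with NAD+ against 1296 to 1420 in Ctrl, with 0 of 7 tested called by limma and 3 at an unadjusted p-value under 0.05. The other lists in proliferating cells summed to 896 to 1035 with NAD+ against 1075 to 1126 in Ctrl for astrocyte markers (0 of 7 called, 1 at an unadjusted p-value under 0.05, limma) and to 534 to 593 against 530 to 606 for neural stem cell markers (0 of 7 called, 2 likewise). Neuron markers summed to 51.7 to 55.5 against 70.3 to 83.8, with 1 of 6 tested called lower. Gap43, a growth cone protein named here after the values were seen, was this gene (log2 fold change -1.01, adjusted p-value 0.0266 by limma). Its call was lost without each sample but proliferating Ctrl 1 (adjusted p-values 0.0866 to 0.157) and without the variance trend (0.0835). The lower sum was mainly that of Gap43, whose mean fell from 48.6 to 24.0 FPKM. Map2 (16.9 to 18.5), Tubb3 (9.51 to 9.70) and Rbfox3 (0.107 to 0.123) had higher means with NAD+. Dcx (1.49 to 1.30), Snap25 (0.74 to 0.523) and Stmn2 (0.0233 to 0.02) had lower ones. The counts of called markers stand beside 6.92% of all genes called under differentiation conditions and 0.145% in proliferating cells. The unadjusted counts in proliferating cells stand beside 15.4% of all genes. Endothelial markers summed to under 1 FPKM in each sample. Mural and fibroblast markers summed to 7.65 to 13.54, of which Cspg4, named likewise and also a gene of oligodendrocyte precursors, made up 6.89 to 12.08 and the other 7 genes together 0.45 to 1.64. The part of cell composition in the Adora2b difference was not tested.

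The NAD+ difference of a receptor gene was then compared between the states in a fit of all 12 samples. By limma 0 of 7 members were called, beside 91 of 19498 genes (0.467%), and 0 had an unadjusted p-value under 0.05. For Adora2b the difference between the states was 0.04 on the log2 scale with a 95% interval of -0.58 to 0.65. Adora1, which was on average higher with NAD+ in proliferating cells and lower under differentiation conditions, had a difference of -0.47 (95% interval -0.96 to 0.01, adjusted p-value 0.335). The other 5 tested members ranged from -0.77 in Adora2a (95% interval -1.67 to 0.13) to 0.12 in P2ry1 (-0.31 to 0.56). The median over all genes in this contrast was -0.155 with the deposited scaling and -0.015 after median-ratio scaling or quantile normalization, so a value here is to be read against that shift. Whether the tables of the states were made in one run is not stated.

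Without NAD+, 4 of the 7 tested members were higher under differentiation conditions than in proliferating cells, and none was lower. Across all genes 56.7% were called in this contrast (11048 of 19498), 25% higher and 31.6% lower (4884 and 6164 genes). After median-ratio scaling 5747 were higher and 5347 lower, and after quantile normalization 5229 and 5439. State, time in culture and any library batch cannot be told apart in it. P2rx4 had the largest change among the expressed members, from 1.84, 1.59 and 1.25 FPKM in proliferating Ctrl samples to 2.5, 3.88 and 3.54. The groups did not overlap (log2 fold change 1.03, SE 0.22, adjusted p-value 0.00233 by limma). Adora1 rose from a mean of 12.9 to one of 19.0 FPKM, also without overlap (log2 fold change 0.57, SE 0.16, adjusted p-value 0.00899 by limma).

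The low-level members Adora2a and P2ry2 rose as well, and both remained under 1 FPKM. Adora2a went from 0.34, 0.32 and 0.34 to 0.77, 0.94 and 0.63 (log2 fold change 1.01, SE 0.29, adjusted p-value 0.0115 by limma), and the call was lost after quantile normalization (0.75, adjusted p-value 0.0558). P2ry2 went from 0.42, 0.34 and 0.38 to 0.64, 0.82 and 0.97 (log2 fold change 0.91, SE 0.20, adjusted p-value 0.00234 by limma). With NAD+ under differentiation conditions the mean of P2ry2 was 0.383 ± 0.0681, beside 0.380 ± 0.04 in proliferating Ctrl cells, and the mean of Adora2a was 0.340 ± 0.151, beside 0.333 ± 0.0115 (SD, n = 3 each). Adora1 and P2rx4, the other members that were higher under differentiation conditions, had NAD+ means there of 16.01 ± 1.98 and 3.67 ± 0.856, above their proliferating Ctrl means. The groups set side by side here differ in both state and NAD+. In proliferating NAD+ cells the means were 0.22 for P2ry2, 0.263 for Adora2a, 15.0 for Adora1 and 2.20 for P2rx4. For none of these genes was the NAD+ effect called different between the states (adjusted p-values 0.335 to 0.651 by limma).

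Adora2b, P2rx7 and P2ry1 did not pass the test between the states. Their log2 fold changes were -0.16 (95% interval -0.60 to 0.27), -0.004 (-0.49 to 0.48) and -0.16 (-0.46 to 0.15). The sign of the Adora2b value turned to 0.05 after quantile normalization, and that of P2rx7 to 0.13 after median-ratio scaling and to 0.21 after quantile normalization. Without proliferating Ctrl sample 1, P2ry1 was called lower under differentiation conditions (-0.33, adjusted p-value 0.0164 by limma). The all-gene median of this contrast was -0.060 with the deposited scaling and 0.059 after median-ratio scaling.

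Of 10 further purinergic receptor genes, 2 reached a mean FPKM of 1 in a group. Gpr17, a receptor of oligodendrocyte precursors related to the P2Y family, was far above any member: 43.29, 54.06 and 44.78 FPKM in proliferating Ctrl, and 329.2, 386.27 and 352.91 in Ctrl under differentiation conditions. With NAD+ under differentiation conditions it was at 185.31, 213.66 and 178.94, below every Ctrl sample (log2 fold change -0.89, SE 0.09, adjusted p-value 0.00662 by limma). The call of Gpr17 held without any 1 sample (adjusted p-values 0.014 to 0.0306). In proliferating cells it was at 38.07, 26.95 and 29.78 with NAD+ (log2 fold change -0.59, SE 0.15, adjusted p-value 0.164 by limma). P2rx6, a P2X subunit, was higher in Ctrl under differentiation conditions (3.79, 3.01 and 2.48) than in proliferating Ctrl (1.33, 0.60 and 0.63; log2 fold change 1.81, SE 0.29, adjusted p-value 0.000313 by limma), and with NAD+ it was at 2.76, 2.35 and 2.73, which overlapped Ctrl. Both were the 2 of 4 tested genes called between the states, both higher, beside 25% of all genes called higher. Gpr17 was the 1 of 4 called with NAD+ under differentiation conditions, beside 6.92% of all genes. Of the 10, 4 were tested and 6 or 7 had a group mean under 0.15.

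Among the genes listed for the receptors' ligands, 0 of 8 tested nucleotide hydrolysis genes were called with NAD+ in proliferating cells by limma. At an unadjusted p-value under 0.05 there were 2, beside 15.4% of all genes. Under differentiation conditions 2 of 7 were called, both lower. The shares of all genes called were 0.145% and 6.92%. The 2 were Enpp2, the secreted enzyme autotaxin, and Entpd1, the ectonucleotidase CD39. The list holds Enpp2 beside Enpp1 and Enpp3, and whether autotaxin acts on nucleotides in these cells was not measured. Enpp2 was at 13.33, 13.57 and 13.51 FPKM in Ctrl and at 6.67, 7.88 and 7.09 with NAD+, far apart (log2 fold change -0.90, SE 0.07, adjusted p-value 0.00445 by limma). Entpd1 was at 1.14, 1.32 and 1.22 in Ctrl and at 0.48, 0.70 and 0.59 with NAD+ (log2 fold change -0.95, SE 0.17, adjusted p-value 0.0282 by limma), a call lost without each of 5 samples (all but NAD+ sample 2, adjusted p-values 0.0665 to 0.1), without the filter (0.0589) and after quantile normalization (0.053). Between the states 5 of 7 were called, 3 higher under differentiation conditions and 2 lower, beside 25% and 31.6% of all genes. Entpd2, which hydrolyses ATP, rose from 0.87, 0.45 and 0.24 in proliferating Ctrl to 15.04, 21.83 and 17.6 in Ctrl under differentiation conditions (log2 fold change 4.99, SE 0.32, adjusted p-value 3.36e-07 by limma). Cd38, an NAD+ glycohydrolase, rose from 0.19, 0.12 and 0.17 to 0.94, 1.14 and 1.65 (log2 fold change 2.35, SE 0.26, adjusted p-value 1.61e-05 by limma). Entpd1 was 1 of the 2 that were lower (log2 fold change -1.07, SE 0.25, adjusted p-value 0.00407 by limma).

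Of the adenosine handling genes, 1 of 7 tested was called with NAD+ under differentiation conditions and 0 of 7 in proliferating cells (2 at an unadjusted p-value under 0.05, limma), beside the same shares of all genes. Adk, adenosine kinase, which turns adenosine into AMP, was at 3.08, 3.47 and 3.44 in Ctrl and at 2.31, 2.20 and 1.89 with NAD+. The groups were apart (log2 fold change -0.62, SE 0.11, adjusted p-value 0.027 by limma), but the call was lost without each of the 6 samples (adjusted p-values 0.0517 to 0.0941). Between the states 5 of 7 were called, 1 higher under differentiation conditions and 4 lower, beside 25% and 31.6% of all genes. Among the lower were Ada, adenosine deaminase (log2 fold change -1.53, SE 0.34, adjusted p-value 0.00251 by limma), and the nucleoside transporter Slc29a1 (log2 fold change -0.87, SE 0.10, adjusted p-value 1.97e-05 by limma). None of 6 tested nucleotide release genes was called with NAD+ under differentiation conditions (1 at an unadjusted p-value under 0.05 by limma, beside 24.2% of all genes). None of 4 was called in proliferating cells (1 likewise, beside 15.4%). Between the states 4 of 6 were higher under differentiation conditions and 1 was lower, beside the same 25% and 31.6% of all genes. Slc17a9, the vesicular nucleotide transporter, rose from 0, 0.05 and 0 in proliferating Ctrl to 0.80, 0.46 and 0.82 in Ctrl under differentiation conditions (log2 fold change 2.76, SE 0.28, adjusted p-value 9.96e-06 by limma), and this value depended strongly on the number added (0.73 with 1 and 5.23 with 0.01).

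Downstream of the receptors, 2 of 15 tested genes of the G protein and phospholipase C-IP3 list were called with NAD+ under differentiation conditions, both lower, and 0 of 14 in proliferating cells (3 at an unadjusted p-value under 0.05, limma). The shares over all genes were 6.92% and 0.145%, and 15.4% for the unadjusted count. Between the states 14 of the 15 were called, 7 higher and 7 lower, beside 25% and 31.6% of all genes. Plcb1, a phospholipase C activated by Gq, was at 3.49, 3.75 and 3.50 FPKM in Ctrl and at 1.93, 2.31 and 1.94 with NAD+, without overlap (log2 fold change -0.77, SE 0.10, adjusted p-value 0.013 by limma). The call of Plcb1 was lost without any one of the Ctrl samples (0.0515 to 0.0556). Itpr2, an IP3 receptor of the endoplasmic reticulum, was at 10.55, 12.52 and 9.78 in Ctrl and at 6.66, 7.74 and 6.09 with NAD+ (log2 fold change -0.67, SE 0.12, adjusted p-value 0.0297 by limma), and its call was lost without each sample but NAD+ sample 2 (0.0594 to 0.0912) and without the variance trend (0.0693). The list medians under differentiation conditions were -0.25 for the 7 tested members, -0.60 for the other receptors, -0.61 for nucleotide hydrolysis, -0.22 for adenosine handling, -0.29 for nucleotide release and -0.16 for the G protein list, beside -0.08 for all genes tested. The median of the members there turned to 0.15 at a minimum mean FPKM of 1, with 5 members tested, and to 0.03 without the filter. In proliferating cells they were 0.15, -0.16, -0.09, -0.12, -0.10 and 0.03 in the same order, beside 0.07 for all genes, and the median of the members there was -0.02 without proliferating Ctrl sample 1 and 0.05 without proliferating NAD+ sample 3.

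**Figure D3:**
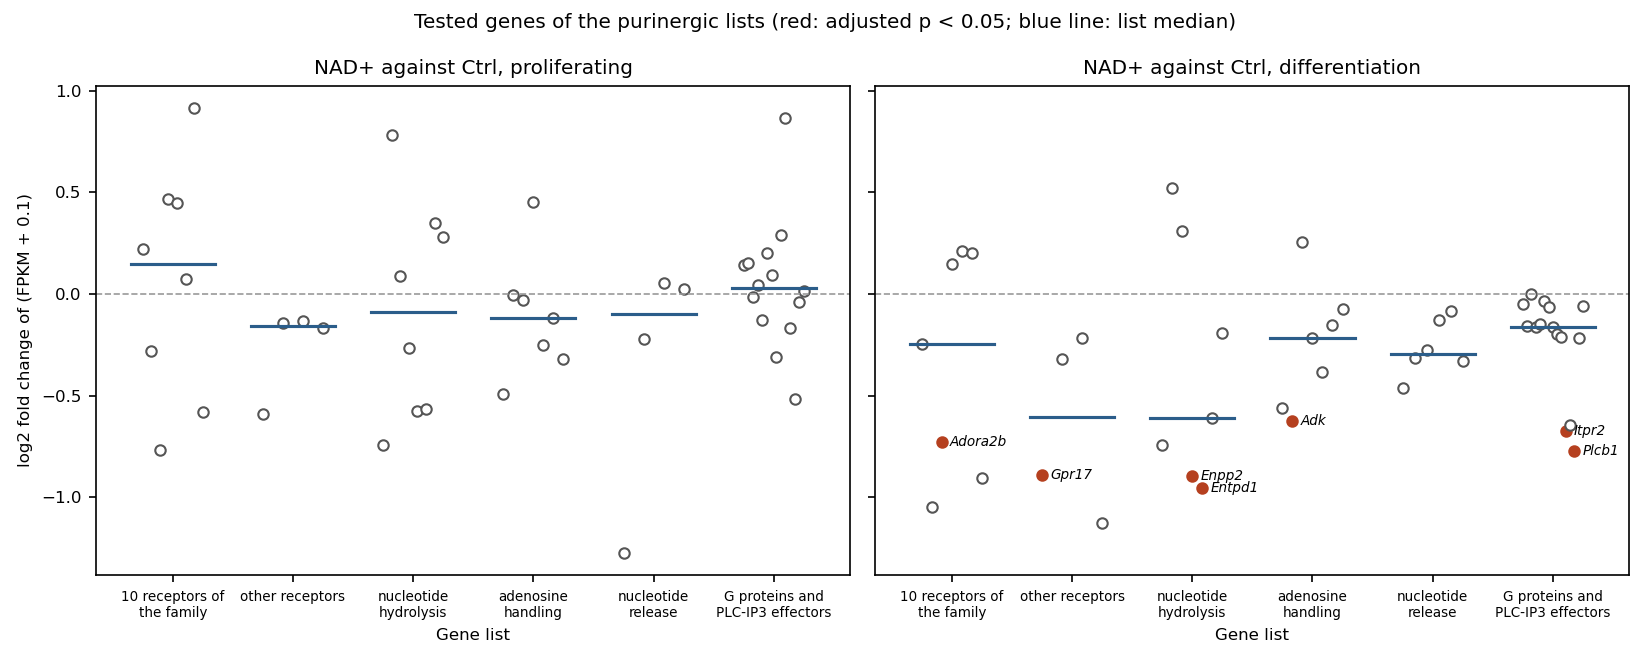
Log2 fold change of (FPKM + 0.1), NAD+ against Ctrl, for each tested gene of 6 purinergic gene lists, in proliferating cells (left) and under differentiation conditions (right). Blue lines are list medians and filled red points are genes with an adjusted p-value under 0.05. There are none on the left, and the 7 on the right (Adora2b, Gpr17, Enpp2, Entpd1, Adk, Itpr2, Plcb1) all lie below 0. Over all genes called under differentiation conditions, 912 were lower and 445 higher with this scaling, and 532 and 613 after median-ratio scaling.

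The genes whose pattern over the 12 samples was closest to that of Adora2b were Myorg and Adgrg1. Likeness was the root mean square difference of log2(FPKM + 0.1) after each gene's mean was subtracted, over 12927 genes whose mean FPKM reached 1, and it was 0.146 for Myorg and 0.165 for Adgrg1, where Adora2b itself varied by 0.438 around its mean. Adgrg1, an adhesion G protein-coupled receptor, had means of 114 and 80.9 FPKM in proliferating Ctrl and NAD+ cells and of 123 and 71.0 under differentiation conditions. Myorg, a glycosidase-like protein, had means of 19.3 and 12.9 and of 16.5 and 10.7. In both genes, as in Adora2b, the NAD+ samples of each state lay below the Ctrl samples of that state. Both were picked for likeness to Adora2b over these same samples, so this shared pattern largely follows from the choice.

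**Figure D4:**
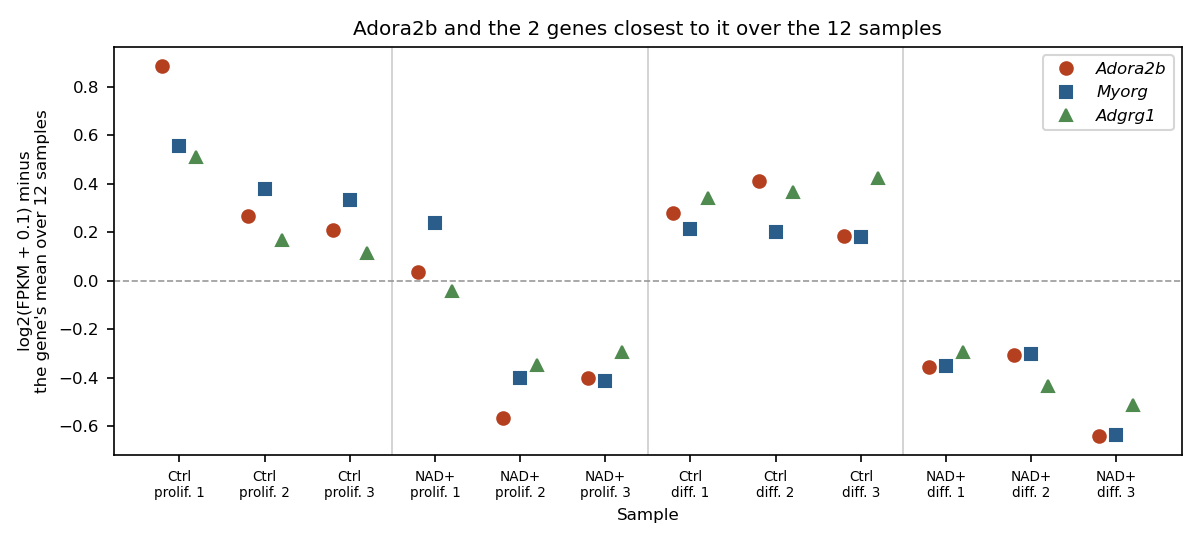
Log2(FPKM + 0.1) of Adora2b (circles), Myorg (squares) and Adgrg1 (triangles) in each of the 12 samples, with each gene's mean over the 12 samples subtracted. Myorg and Adgrg1 were picked for likeness to Adora2b over these same samples. In each state all 3 genes are lower in the 3 NAD+ samples than in the 3 Ctrl samples. Proliferating Ctrl sample 1 has the highest Adora2b value, 11.57 FPKM.

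By position (mm10, GENCODE M21), the members lie on 6 chromosomes. Adora2b (ENSMUSG00000018500) is at chr11:62248984-62266453 on the plus strand, Adora1 (ENSMUSG00000042429) at chr1:134199223-134235431 on the minus strand and Adora2a (ENSMUSG00000020178) at chr10:75316877-75334784 on the plus strand. P2rx7 (ENSMUSG00000029468) is at chr5:122643911-122691432 and P2rx4 (ENSMUSG00000029470) at chr5:122707544-122729738, both plus. P2ry2 (ENSMUSG00000032860, chr7:100996568-101012866) and P2ry6 (ENSMUSG00000048779, chr7:100937630-100974649) are neighbours on the minus strand, 21.9 kb apart. P2ry1 (ENSMUSG00000027765) is at chr3:61002795-61008982 on the plus strand, and P2ry12 (ENSMUSG00000036353, chr3:59216272-59262871) and P2ry14 (ENSMUSG00000036381, chr3:59113855-59153618) lie on the minus strand inside Med12l, a plus-strand gene at 0.72 to 5.38 FPKM that shares 9 exonic bases with P2ry12 and 0 with P2ry14.

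Strand of the libraries is not stated, so reads from overlapping genes of opposite strands may be counted for either. Adora1 shares 20.1% of its exonic bases with Mybph, which was at 0 to 0.03 FPKM in the 12 samples. P2ry1 shares 23.1% with the antisense gene Gm37035, at 0 to 0.33 FPKM. P2rx7 holds the microRNA gene Mir8115 (2.0% of its exonic bases, 0.11 to 0.19 FPKM), and Gm44545 lies within P2ry6 without shared exonic bases and was listed at 0. Adora2a, Adora2b, P2rx4 and P2ry2 overlap no other annotated gene.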

How the data were processed

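RNA-seq was performed on 12 samples of aNSPCs in 4 groups of 3. The authors used Hisat2 v2.0.5 for mapping to mm10, counted uniquely mapped reads with FeatureCounts v2.0.1 and deposited FPKM values per sample, rounded to 0.01, in a table for each state. The program that computed FPKM is not given in the sources used here. Per the file headers, the tables also hold the authors' fold change, its log2, a p-value and a q-value, none of which was used. Columns of single samples that were not used number 0. Depth is unknown, and gene totals of FPKM (308828 to 363330 per sample) do not measure it.

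No further scaling was applied. Values were taken as log2(FPKM + 0.1), a gene entered a fit where its mean FPKM reached 0.1, and limma 3.58.1 in R 4.3.3 was fitted (moderated variance with a trend, two-sided, Benjamini-Hochberg over all genes tested): NAD+ against Ctrl in the 6 samples of each state, and the difference of these effects and Ctrl between states in all 12. Exact two-sided permutation tests compared mean FPKM of single genes, where 0.1 is the smallest p. The members, the gene lists and the tests were chosen with earlier results of these data known. All 10 members are named, and in other lists the genes that were called, at most 4 per list and comparison, plus receptors at a mean FPKM of at least 1 in a group. The alternatives for named genes of other lists were added after seeing the data. The fits were tested on simulated data. Positions are from GENCODE M21 and upstream sequences from RefSeq on GRCm38.p6. Other steps ran in Python 3.11.15 (pandas 2.3.3, scipy 1.17.1, numpy 2.4.6), and figures were drawn with matplotlib 3.10.9.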

Additional observations from a re-analysis of the deposited data

How the results depend on the processing

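The 5 expressed receptors stayed 5 without any 1 sample and after median-ratio scaling. At 0.5 FPKM there were 7 in Ctrl under differentiation conditions, and at 2 FPKM 4 in proliferating Ctrl. The number of receptors called with NAD+ under differentiation conditions was 0 to 1 without 1 sample (0 without any one Ctrl sample) and 2 (Adora2a and P2ry2) by an unadjusted p-value under 0.05 with more than 2-fold change in the ratio of mean FPKM (0.436 and 0.473). On the log2(FPKM + 0.1) scale Adora2a was 2.07-fold and P2ry2 1.87-fold lower. Between the states the number of receptors called was 4 to 5 without 1 sample and 2 at a minimum mean FPKM of 1, where fewer members were tested. In proliferating cells and in the difference of the effects it was 0 under each alternative run.

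The all-gene counts moved more. With NAD+ in proliferating cells 27 became 9 without the filter, 75 at a minimum of 1, 60 after quantile normalization, 0 without the variance trend, 559 by the unadjusted rule with 2-fold change, and 0 to 36 without 1 sample (0 without proliferating Ctrl 3, NAD+ 1 or NAD+ 2, 1 without Ctrl 2 and 2 without NAD+ 3). Under differentiation conditions 1357 became 619 without the trend, 795 by the unadjusted rule and 328 to 719 without any 1 sample. For the difference of the effects 91 became 139 with 1 added, 56 without the trend and 12 to 195 without 1 sample. Between the states 11048 became 6058 by the unadjusted rule and 9946 to 11080 without 1 sample. The cause was not tested. Median-ratio scaling gave 613 higher and 532 lower calls with NAD+ under differentiation conditions, quantile normalization 580 and 581, and the deposited scaling 445 and 912. In proliferating cells these were 7 and 26, 16 and 44, and 9 and 18, and for the difference of the effects 70 and 24, 63 and 28, and 43 and 48.

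Whether the replicate numbers pair the samples could not be decided, because the correlations between same-numbered samples were weak. Around their group means, same-numbered Ctrl and NAD+ samples correlated at 0.167, 0.013 and 0.083 in proliferating cells. Under differentiation conditions they correlated at 0.049, 0.078 and 0.019. All these values were positive. In proliferating cells sample 1 had the highest Adora2b value of its group, at 11.57 FPKM in Ctrl and 6.37 with NAD+. However, not every sample correlated best with its own number. As a hint from the data, each Ctrl sample under differentiation conditions did, but NAD+ sample 3 was closest to Ctrl sample 1 there (0.034 against 0.019). With the replicate block the all-gene counts were 0 in proliferating cells, 758 under differentiation conditions and 26 for the difference of the effects, Adora2b stayed called (adjusted p-value 0.0307), and Entpd1 and Adk were not called under differentiation conditions (0.057 and 0.0766), nor was Gap43 in proliferating cells (0.124). In proliferating cells Adora2b remained uncalled with the block (log2 fold change -0.765, adjusted p-value 0.153 by limma). The signs of some uncalled values near 0 turned. For NAD+ these were P2ry1 in proliferating cells (-0.026 after quantile normalization, -0.093 to 0.173 without 1 sample) and P2rx4 (-0.036 to 0.275) and P2rx7 (-0.095 to 0.374) under differentiation conditions without 1 sample. For the difference of the effects Adora2b ranged from -0.178 to 0.213 without 1 sample. Between the states Adora2b was 0.053 after quantile normalization and -0.285 to 0.054 without 1 sample, and P2rx7 was 0.125 after median-ratio scaling, 0.208 after quantile normalization and -0.123 to 0.071 without 1 sample. Low values rounded to 0.01 and unknown depth limit what can be said of P2ry6, P2ry12 and P2ry14.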
